A study of Mus musculus with 6 samples.

Results

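The expression of 9 genes that respond to glucocorticoids or to metals was followed in the left ventricles (LVs) of mice with and without a point mutation in Lztr1. They were the glucocorticoid receptor gene Nr3c1, the 6 receptor-responsive genes Fkbp5, Tsc22d3, Sgk1, Zbtb16, Klf9, and Cdkn1a, and the metallothionein genes Mt1 and Mt2. The genes were chosen by name as a readout of stress hormone exposure, with earlier results of these data known, and were 9 of the 56923 genes listed. All 9 passed the filter on low counts and were among the 17212 genes tested.

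The comparison was of 3 WT mice with 3 Lztr1 R409C/+ mice, all male and 12 weeks of age. Lztr1 R409C/+ mice carry on 1 allele an arginine-to-cysteine substitution that was introduced with CRISPR/Cas9, and the sample labels name these mice only as mutant. LZTR1 is an adaptor of a ubiquitin ligase that controls the stability of RAS proteins, and the mutation models Noonan syndrome. The hearts were perfused with PBS before RNA extraction, the labels call the tissue heart, and 1 RNA-seq library was made per mouse. The hour of collection, the handling of each mouse, and any batch were not given in the sources used here, and they bear on genes that follow the daily rhythm of corticosterone.

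Glucocorticoids enter cells freely and bind the glucocorticoid receptor, which waits in the cytoplasm in a complex with HSP90 and immunophilins, moves to the nucleus, and binds response elements near its target genes. The response then feeds back on the receptor through FKBP5, a cochaperone that lowers its affinity for hormone. Metallothioneins are small cysteine-rich proteins that hold zinc and copper, and their genes respond to metals through the zinc sensor MTF1 and also to glucocorticoids, oxidative stress, and inflammatory cytokines. In heart muscle, glucocorticoids act on growth, contraction, and fuel use.

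The metallothionein genes lie next to each other, and their promoter windows are shown because metals act on these genes through short elements close to their starts. They come from RefSeq on GRCm38.p6, cover 250 bases before and 50 bases after the annotated start, and were found once each, without a mismatch, in GRCm39. Mt2 (plus strand) has its window at chr8:94172368-94172667 of GRCm38.p6, which is chr8:94898996-94899295 of GRCm39. Mt1 (plus strand) has its window at chr8:94178839-94179138 of GRCm38.p6, which is chr8:94905467-94905766 of GRCm39, 6471 bases further along the chromosome. Capitals mark each match to the core of the metal response element, searched as TGCACNC or TGCGCNC on both strands.
Mt2: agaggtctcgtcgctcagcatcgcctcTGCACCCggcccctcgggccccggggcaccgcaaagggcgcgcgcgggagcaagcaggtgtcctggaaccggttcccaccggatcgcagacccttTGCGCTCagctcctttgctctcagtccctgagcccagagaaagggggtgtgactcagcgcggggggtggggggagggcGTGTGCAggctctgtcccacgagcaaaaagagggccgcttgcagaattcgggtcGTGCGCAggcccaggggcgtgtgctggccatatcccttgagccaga
Mt1: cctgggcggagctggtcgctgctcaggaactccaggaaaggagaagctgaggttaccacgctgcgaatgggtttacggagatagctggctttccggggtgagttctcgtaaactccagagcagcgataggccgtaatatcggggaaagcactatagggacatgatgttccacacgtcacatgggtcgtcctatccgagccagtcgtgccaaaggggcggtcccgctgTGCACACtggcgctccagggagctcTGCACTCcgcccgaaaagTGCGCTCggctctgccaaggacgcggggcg

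The Mt2 window held 4 matches to the metal response element core, from 223 bases before to 4 bases after the annotated start. The Mt1 window held 3, from 23 bases before to 20 bases after its start. Of the 32851 windows of the same length in the RefSeq table, 1.97% held 3 or more matches and 0.517% held 4 or more. For the glucocorticoid response element, the 2 half-sites AGAACA and TGTTCT with 3 bases between them were searched on both strands. An exact match was found in 3 of all 32851 windows (0.00913%), and 1 of these 3 belonged to Sgk1, with its first base 189 bases before 1 of the 6 starts listed for that gene. A stretch of 60 bases around it (plus strand, chr10:21993679-21993738 of GRCm38.p6, chr10:21869578-21869637 of GRCm39) is given with both half-sites in capitals.
Sgk1: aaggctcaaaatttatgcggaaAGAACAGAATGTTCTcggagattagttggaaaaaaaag

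The table held 15 windows for 7 of the 9 genes, and Zbtb16 and Nr3c1 are named only. The half-site AGAACA alone was found in windows of Sgk1 and Tsc22d3, against 19.0% of all windows. The sequence CACGTG, the E-box bound by clock proteins, was found in 1 window each of Fkbp5 and Sgk1, against 7.15% of all windows. The Mt1 and Mt2 windows held neither. A match describes letters in these windows and is not a measured binding site.

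Total counts ranged from 66130887 to 72641124 per mouse, so that 3 counts corresponded to between 0.0317 and 0.0541 CPM after TMM normalization, which divides by the total of each mouse after adjusting it for differences in RNA composition. This floor reflects counting error alone. The share of counts from mitochondrially encoded genes was 13.8% for WT replicate 3 and 45.4% for Lztr1 R409C/+ replicate 1, against 29.7% to 37.3% in the other 4 mice, and calls on named genes that changed when these 2 libraries were left out are given with and without them. All 6 cardiomyocyte markers were present, with a summed level between 25487 and 38800 CPM. Lztr1 itself had a log2 fold change of 0.13 (standard error [SE] 0.15, adjusted p = 0.854), which does not check the genotype because a point mutation need not alter the RNA level.

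Of the 9 genes, 0 differed between the genotypes at an adjusted p under 0.05 by the quasi-likelihood test of edgeR, adjusted by the Benjamini-Hochberg method across all genes tested. DESeq2 and edgeR's exact test also called 0. Of all genes, the quasi-likelihood test called 7 (0.0407%). At an unadjusted p under 0.05, 1 of the 9 genes, Mt2, was higher and 0 were lower in Lztr1 R409C/+ mice, against 5.77% of all genes higher and 2.86% lower. Mt2 was also the 1 gene of the 9 whose CPM values did not overlap between the genotypes, and 8.3% of all genes did not overlap and were higher in Lztr1 R409C/+ mice, with 7.23% lower. Without WT replicate 3 and Lztr1 R409C/+ replicate 1, 3 of the 9 were higher at an unadjusted p under 0.05 (Sgk1, Cdkn1a, and Mt2) and 0 were lower, against 5.92% and 2.58% of all genes, with a smallest adjusted p of 0.488 and a median log2 fold change of 0.41. Without Lztr1 R409C/+ replicate 2 or replicate 3 alone, 2 of the 9 passed an unadjusted p of 0.05, Mt2 with Zbtb16 (lower) and Mt2 with Mt1 (higher), respectively. The shares of all genes were 5.19% higher and 2.97% lower in the first of these fits and 4.89% and 2.85% in the other. Log2 fold changes, given throughout as Lztr1 R409C/+ over WT mice, were above 0 for 6 genes and below 0 for 3, with a median of 0.10 beside 0.01 over all genes tested. The median turned to -0.13 when scaled by library size only (-0.14 over all genes), to -0.12 without WT replicate 2, and to -0.035 without Lztr1 R409C/+ replicate 2, and was 0.28 without WT replicate 3.

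**Figure D1:**
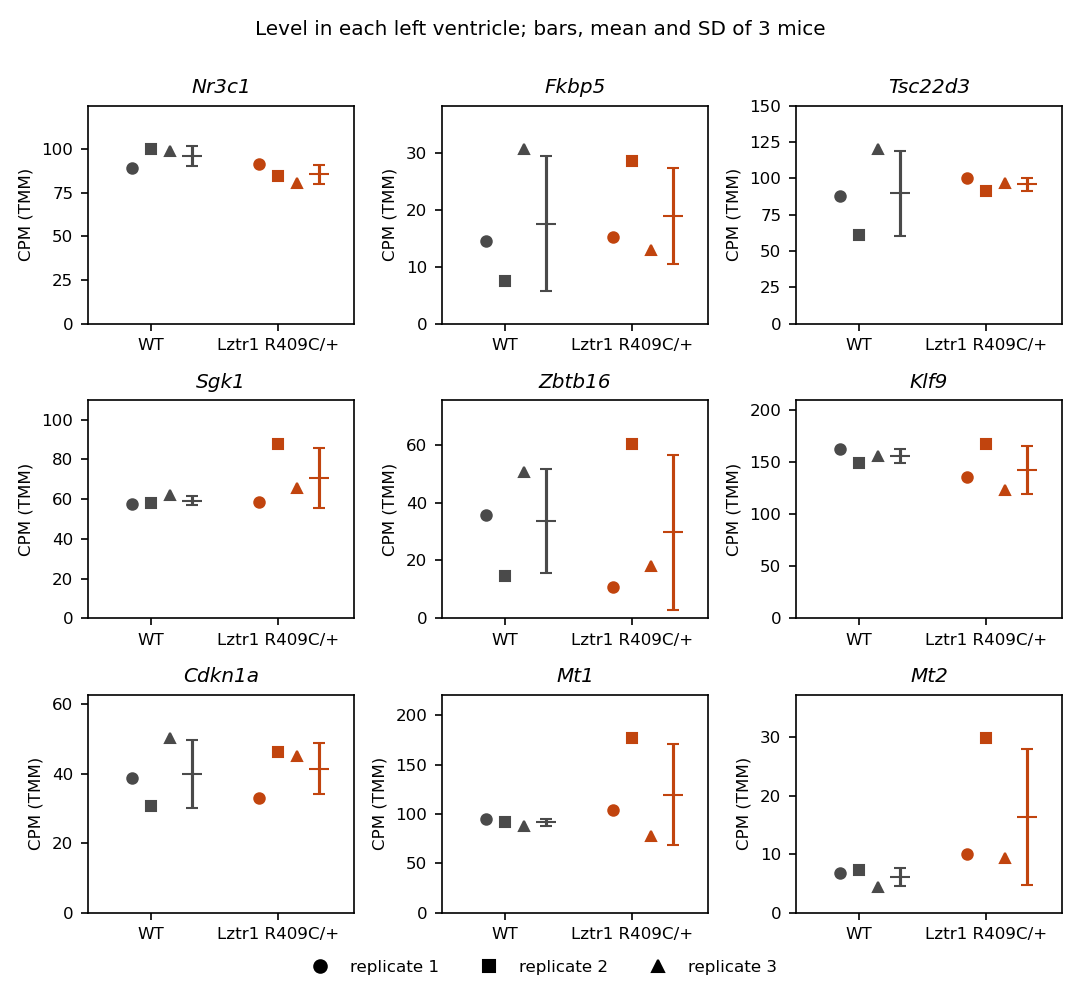
TMM-normalized CPM (linear axis from 0) of the 9 genes in each LV, with circles, squares, and triangles for replicates 1, 2, and 3 of each genotype and the mean with SD of 3 mice beside them. Only Mt2 has all 3 Lztr1 R409C/+ mice above all 3 WT mice, and Lztr1 R409C/+ replicate 2 is the highest mouse for Mt1, Mt2, Sgk1, Zbtb16, and Klf9.

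The receptor was the steadiest gene of the set. Nr3c1 (ENSMUSG00000024431.16, chromosome 18 of GRCm39, 39543598 to 39652474, minus strand) had 89.2, 99.9, and 99.0 CPM in WT replicates 1, 2, and 3 and 91.6, 84.6, and 80.7 CPM in the Lztr1 R409C/+ mice, in replicate order. The groups overlapped through WT replicate 1 and Lztr1 R409C/+ replicate 1. Its log2 fold change was -0.17 (SE 0.15, 95% confidence interval -0.48 to 0.15, adjusted p = 0.799), and every alternative gave a value from -0.34 to -0.12. The biological coefficient of variation (BCV), the spread between mice of 1 genotype beyond counting error, was 14.5% for Nr3c1, and only 1.66% of all genes tested had a lower one.

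Fkbp5, the cochaperone gene and the most commonly used marker of receptor activity, differed more within each genotype than between them. Fkbp5 (ENSMUSG00000024222.18, chromosome 17, 28618058 to 28737521, minus strand) had 14.5, 7.57, and 30.6 CPM in WT and 15.2, 28.6, and 12.9 CPM in the 3 Lztr1 R409C/+ mice, in replicate order. The lowest and the highest mouse were both WT, 4.04-fold apart, and the Lztr1 R409C/+ mice lay between them. The means were 17.6 ± 11.8 CPM (SD, n = 3) in WT and 18.9 ± 8.47 CPM (SD, n = 3) in Lztr1 R409C/+ mice. The log2 fold change was 0.10 (SE 0.54, 95% confidence interval -1.18 to 1.39, adjusted p = 0.974). The sign turned in 4 of 15 alternatives, to -0.33 without Lztr1 R409C/+ replicate 2, -0.26 without WT replicate 2, -0.20 when scaled by library size only, and -0.015 without WT replicate 1, whereas the value was 0.91 (adjusted p = 0.611) without WT replicate 3 and Lztr1 R409C/+ replicate 1 together.

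Tsc22d3, which encodes the anti-inflammatory protein GILZ, repeated the order of the WT mice at a smaller range. Tsc22d3 (ENSMUSG00000031431.14, chromosome X, 139440091 to 139501408, minus strand) had 87.8, 61.4, and 120.0 CPM in WT and 100.1, 91.1, and 96.9 CPM in Lztr1 R409C/+ replicates 1, 2, and 3. WT replicate 2 was the lowest and WT replicate 3 the highest mouse, as for Fkbp5, and all 3 Lztr1 R409C/+ mice fell within 1.1-fold of each other. Its log2 fold change was 0.10 (SE 0.21, adjusted p = 0.931), and 0.33 (adjusted p = 0.652) without the 2 libraries of unusual mitochondrial share. The sign turned to -0.12 without WT replicate 2 and to -0.13 when scaled by library size only.

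Sgk1 encodes a kinase that regulates ion channels and transporters. Sgk1 (ENSMUSG00000019970.16, chromosome 10, 21758083 to 21875802, plus strand) had 57.7, 58.2, and 62.0 CPM in WT and 58.5, 87.8, and 65.7 CPM in the 3 Lztr1 R409C/+ mice, in replicate order. The WT mice were within 1.07-fold of each other, Lztr1 R409C/+ replicate 1 lay among them, and replicate 2 stood above all other mice. The log2 fold change was 0.25 (SE 0.17, adjusted p = 0.726), and it was 0.06 without Lztr1 R409C/+ replicate 2 and 0.41 (adjusted p = 0.562) without the 2 libraries of unusual mitochondrial share.

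Zbtb16, the gene of the zinc finger repressor PLZF, had the widest relative spread among mice of 1 genotype. Zbtb16 (ENSMUSG00000066687.6, chromosome 9, 48563141 to 48748664, minus strand) had 35.6, 14.6, and 50.8 CPM in WT and 10.8, 60.4, and 18.0 CPM in Lztr1 R409C/+ replicates 1, 2, and 3. Both the lowest and the highest mouse were Lztr1 R409C/+, 5.62-fold apart, with the WT mice between them. Its BCV of 66.3% was above that of 95.8% of all genes tested, its log2 fold change was -0.18 (SE 0.82, 95% confidence interval -2.30 to 1.94, adjusted p = 0.970), and the sign turned when single mice were left out, over a range of -1.24 to 0.24. Without the 2 libraries of unusual mitochondrial share it was 0.64 (adjusted p = 0.834).

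Klf9 and Cdkn1a encode a transcription factor that attenuates the glucocorticoid response and the cell cycle inhibitor p21. Klf9 (ENSMUSG00000033863.3, chromosome 19, 23118187 to 23148497, plus strand) had 162.8, 149.1, and 155.7 CPM in WT and 136.2, 167.8, and 123.7 CPM in Lztr1 R409C/+ replicates 1, 2, and 3. Lztr1 R409C/+ replicates 1 and 3 were below and replicate 2 above all WT mice, with a log2 fold change of -0.13 (SE 0.16, adjusted p = 0.864). Cdkn1a (ENSMUSG00000023067.15, chromosome 17, 29309936 to 29319701, plus strand) had 38.6, 30.7, and 50.1 CPM in WT and 33.1, 46.2, and 45.0 CPM in the 3 Lztr1 R409C/+ mice, in replicate order. The extremes were again WT replicates 2 and 3, and the log2 fold change was 0.06 (SE 0.20, adjusted p = 0.958). The sign of Cdkn1a turned in 4 of 15 alternatives. Its value was -0.13 when scaled by library size only, -0.10 without WT replicate 2, and -0.035 and -0.0044 without Lztr1 R409C/+ replicates 2 and 3, respectively. For Klf9 the value was -0.27 without Lztr1 R409C/+ replicate 2 and -0.036 without replicate 3. Without the 2 libraries of unusual mitochondrial share, the values were -0.10 (adjusted p = 0.890) for Klf9 and 0.40 (adjusted p = 0.550) for Cdkn1a.

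The largest fold change of the 9 genes was that of Mt2. Mt2 (ENSMUSG00000031762.8, chromosome 8, 94898819 to 94900207, plus strand) had 6.86, 7.22, and 4.43 CPM in WT and 10.1, 29.8, and 9.31 CPM in Lztr1 R409C/+ replicates 1, 2, and 3, from 453, 465, and 420 counts and 558, 2132, and 675 counts. All 3 Lztr1 R409C/+ mice were above all 3 WT mice, and replicate 2 stood far above the other two. The mean was 6.17 ± 1.52 CPM (SD, n = 3) in WT and 16.4 ± 11.6 CPM (SD, n = 3) in Lztr1 R409C/+ mice. The log2 fold change was 1.41 (SE 0.44, 95% confidence interval 0.40 to 2.42), with an unadjusted p = 0.0117 and an adjusted p = 0.454 from edgeR, which missed the threshold, and the difference in log2 CPM gave p = 0.1 in a two-sided exact permutation test, the smallest p that 3 mice against 3 allow. Without Lztr1 R409C/+ replicate 2 the log2 fold change was 0.65 (adjusted p = 0.575), and without the 2 libraries of unusual mitochondrial share it was 1.47 (adjusted p = 0.488). Over all alternatives the adjusted p lay between 0.0827 and 0.723.

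Mt1, the more abundant partner gene, had the smaller fold change. Mt1 (ENSMUSG00000031765.9, chromosome 8, 94905710 to 94906955, plus strand) had 95.1, 91.7, and 87.7 CPM in WT and 104.4, 176.5, and 78.1 CPM in Lztr1 R409C/+ replicates 1, 2, and 3. Lztr1 R409C/+ replicate 2 was the highest and replicate 3 the lowest of all 6 mice. The log2 fold change was 0.39 (SE 0.25, 95% confidence interval -0.15 to 0.92, adjusted p = 0.702) and -0.0096 without Lztr1 R409C/+ replicate 2.

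The ratio of Mt1 to Mt2 counts, which does not depend on the scaling of the libraries, was chosen after its values were seen. There were 13.9, 12.7, and 19.8 Mt1 counts per Mt2 count in WT and 10.4, 5.92, and 8.39 in Lztr1 R409C/+ replicates 1, 2, and 3. Every Lztr1 R409C/+ mouse had a lower ratio than every WT mouse, with a difference in mean log2 ratio of -0.92 (p = 0.1 by exact permutation, two-sided, again the lowest value that can be reached). The difference remained between -1.10 and -0.70 when each mouse was left out in turn. The longest exact stretch shared by any annotated Mt1 transcript and any Mt2 transcript was 20 bases, so that the 2 genes could be told apart by reads longer than that. Mt2 overlaps the antisense gene Gm45774, which received between 18 and 91 counts per mouse, and without a stated strand setting its reads cannot be told apart from those of Mt2. The same holds for Cdkn1a with its antisense gene Dino (16 to 62 counts) and for Klf9 with Gm56648 (92 to 139 counts).

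**Figure D2:**
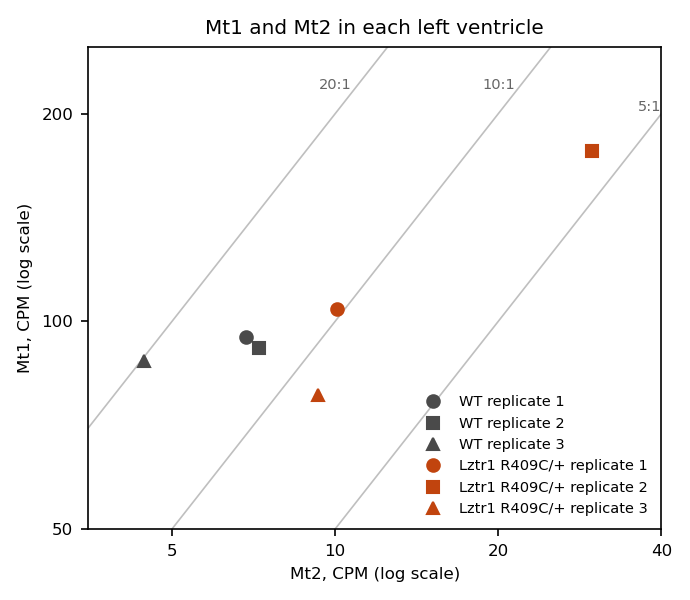
Mt1 against Mt2 in CPM (both axes on a log scale), 1 point per LV, with gray lines at ratios of 5, 10, and 20 to 1. The WT mice lie between 12.7 and 19.8 Mt1 counts per Mt2 count and the Lztr1 R409C/+ mice between 5.92 and 10.4, with replicate 2 alone at the upper right.

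**Figure D3:**
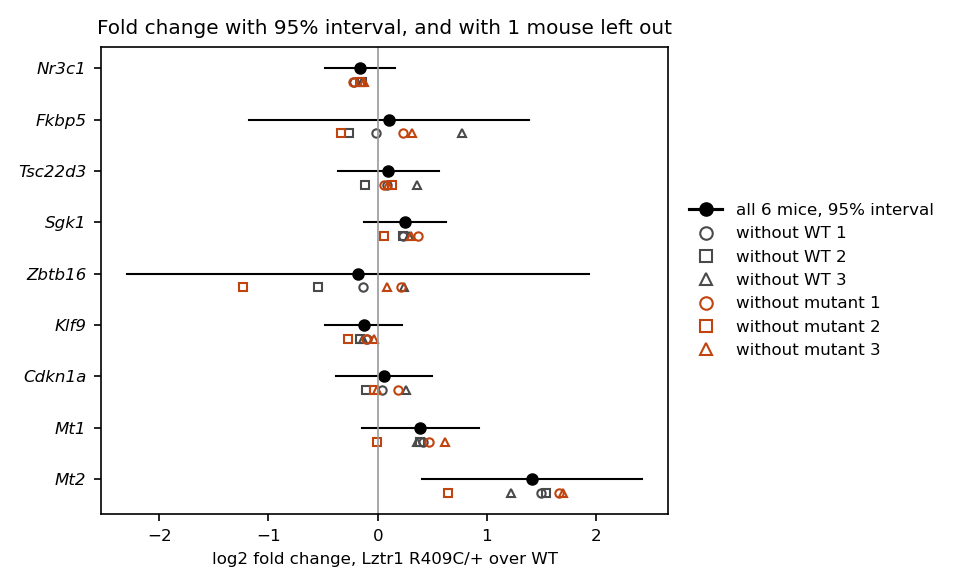
Log2 fold change of Lztr1 R409C/+ over WT mice with its 95% confidence interval (black) and, below each, the values with 1 mouse left out (open symbols, gray for WT and orange for Lztr1 R409C/+ mice). Only the interval of Mt2 lies above 0, before adjustment over all genes, and its value drops from 1.41 to 0.65 without Lztr1 R409C/+ replicate 2.

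Per length of annotated exons, Mt1 was the most abundant of the 9 genes in every mouse, with 73.4 ± 2.98 CPM per kilobase (SD, n = 3) in WT and 96.1 ± 40.9 CPM per kilobase (SD, n = 3) in Lztr1 R409C/+ mice. In WT it was followed by Klf9 at 19.0 ± 0.837, Tsc22d3 at 14.5 ± 4.74, Nr3c1 at 12.2 ± 0.751, Sgk1 at 9.86 ± 0.386, Cdkn1a at 6.58 ± 1.62, Mt2 at 6.50 ± 1.6, Zbtb16 at 3.58 ± 1.93, and Fkbp5 at 1.59 ± 1.06 CPM per kilobase (SD, n = 3 each). Among these neighbors, the WT ranges of Mt1 and Klf9, Nr3c1 and Sgk1, and Sgk1 and Cdkn1a did not meet, whereas the ranges of Klf9 and Tsc22d3, Tsc22d3 and Nr3c1, Cdkn1a and Mt2, Mt2 and Zbtb16, and Zbtb16 and Fkbp5 overlapped. In Lztr1 R409C/+ replicates 1, 2, and 3, Mt2 was at 10.6, 31.4, and 9.8 CPM per kilobase, beside Klf9 at 16.6, 20.4, and 15.1 CPM per kilobase. Mt2 was thus above Klf9 in replicate 2 and below it in the other two. The length counts every annotated exon of a gene, which lowers the value of genes with rarely used exons.

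Several pairs of the genes varied together over the 6 mice, and over fewer mice r rose for some pairs and fell for others. Over the 6 mice, Fkbp5 followed Cdkn1a (Pearson r = 0.81), Tsc22d3 (r = 0.79), and Zbtb16 (r = 0.79), and Zbtb16 followed Klf9 (r = 0.75) on the scale of log2(CPM + 0.5). Mt1 and Mt2 followed each other (r = 0.87), and Sgk1 followed Mt2 (r = 0.86), with the value of Lztr1 R409C/+ replicate 2 far from the rest in both. Over the 4 mice left without WT replicate 3 and Lztr1 R409C/+ replicate 1, r for these 6 pairs was 0.83, 0.71, 0.94, 0.73, 0.91, and 0.99, in the same order. Among other pairs, r went from 0.77 over the 6 mice to 0.61 over these 4 for Zbtb16 and Cdkn1a. For Sgk1 and Mt1 it went from 0.81 to 0.85, and for Tsc22d3 and Cdkn1a from 0.72 to 0.95. Between the same sets of mice, r went from 0.26 to 0.86 for Fkbp5 and Mt2, from 0.49 to 0.81 for Fkbp5 and Mt1, from 0.58 to 0.86 for Fkbp5 and Sgk1, and from 0.22 to 0.75 for Zbtb16 and Mt2. Of the 4 mice left, Lztr1 R409C/+ replicate 2 was the highest for Fkbp5, Zbtb16, Sgk1, Mt1, and Mt2, so that 1 mouse weighs on each of these r. Nr3c1 had an r below 0 to every other gene of the set except Klf9 (r = 0.31). These are descriptions of 6 points that share normalization and include both genotypes, and Cdkn1a ranked 157 of 10582 genes by its r to Fkbp5. After the mean of each genotype was subtracted, the highest r of any pair was 0.97 for Klf9 and Mt1, followed by 0.92 for Mt1 and Mt2, 0.86 for Sgk1 and Zbtb16, 0.86 for Klf9 and Mt2, 0.85 for Fkbp5 and Zbtb16, 0.83 for Zbtb16 and Cdkn1a, and 0.80 for Fkbp5 and Cdkn1a.

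**Figure D4:**
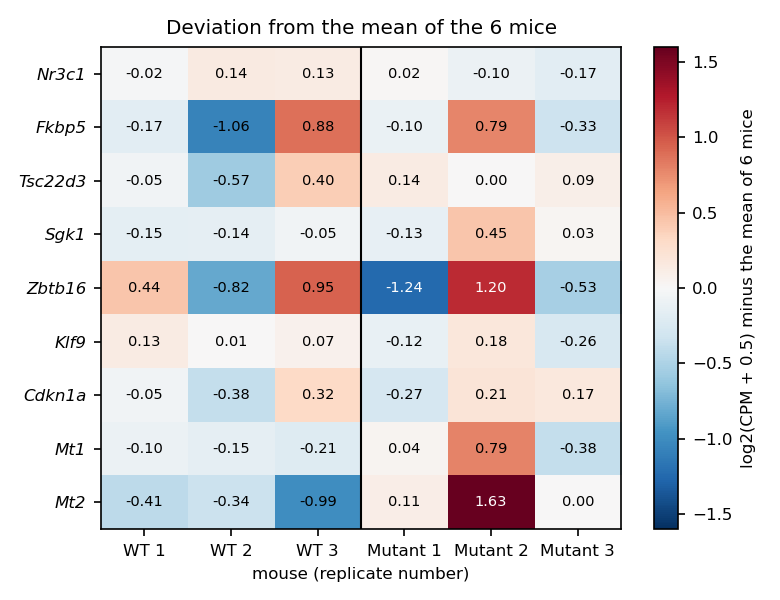
Deviation of log2(CPM + 0.5) from the mean of the 6 mice for the 9 genes (rows) in each mouse (columns), with red above and blue below the mean. WT replicate 2 is low and WT replicate 3 high for Fkbp5 (-1.06 and 0.88), Tsc22d3, Zbtb16, and Cdkn1a, and Lztr1 R409C/+ replicate 2 is high for Mt2 (1.63), Zbtb16 (1.20), Mt1, and Fkbp5 (0.79 each).

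The genes most like Fkbp5 among 10582 with a mean log2 CPM above 2 were Gins4 (r = 0.97), Rgcc (r = 0.97), Zbtb26 (r = 0.97), and Slc25a33 (r = 0.97, n = 6 mice). Slc25a33, a mitochondrial nucleotide carrier gene, had 18.2, 14.6, and 29.4 CPM in WT and 17.8, 26.8, and 16.1 CPM in Lztr1 R409C/+ replicates 1, 2, and 3. For the mean of Mt1 and Mt2, they were Ifngr1 (r = 0.99), Mest (r = 0.97), Inpp5d (r = 0.97), and Castor1 (r = 0.97). Ifngr1, a receptor chain for interferon-gamma, had 42.1, 41.7, and 38.9 CPM in WT and 46.3, 56.6, and 44.2 CPM in Lztr1 R409C/+ mice. In all, 15 genes had an r above 0.95 to Fkbp5 and 6 to the metallothionein mean.

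A wider list of 28 glucocorticoid-induced genes, all tested, gave a median log2 fold change of -0.02 beside 0.01 over all genes, with 13 genes above and 15 below 0. None of them passed the adjusted threshold in any fit, and 0 were higher and 3 lower at an unadjusted p under 0.05, beside 5.77% and 2.86% of all genes. The lower ones were the muscle ubiquitin ligase genes Trim63 (log2 fold change -0.54, SE 0.17, adjusted p = 0.410) and Fbxo32 (-0.37, adjusted p = 0.554), and the repressor gene Bcl6 (-0.42, adjusted p = 0.567). Trim63 had 143.8, 127.9, and 176.3 CPM in WT and 88.4, 104.1, and 114.9 CPM in Lztr1 R409C/+ mice, and all 3 genes were lower in Lztr1 R409C/+ mice without overlap. Of the whole list, 4 genes were lower and 1 was higher without overlap, beside 7.23% and 8.3% of all genes. Next by p were the lipid phosphatase gene Lpin1 (-0.36, adjusted p = 0.60), the arrestin-domain gene Arrdc3 (-0.33, adjusted p = 0.614), the insulin-regulated factors Foxo3 (-0.38, adjusted p = 0.625) and Foxo1 (-0.35, adjusted p = 0.629), and Cebpd (0.36, adjusted p = 0.667). Without the 2 libraries of unusual mitochondrial share, Trim63 had -0.31 (adjusted p = 0.591) and the median was 0.13. In that fit, 0 genes of the list were lower and 1 was higher (Cebpd, 0.56, adjusted p = 0.520) at an unadjusted p under 0.05, beside 2.58% and 5.92% of all genes. Without Lztr1 R409C/+ replicate 2, 6 were lower, beside 2.97% of all genes, and the median was -0.19. Per1, a clock gene that is also a rapid receptor target, had 35.9, 31.7, and 25.6 CPM in WT and 26.4, 32.9, and 38.9 CPM in Lztr1 R409C/+ mice (log2 fold change 0.08, adjusted p = 0.941).

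A pair of further induced genes was picked after their values were seen, for their level in Lztr1 R409C/+ replicate 2. Pdk4, the kinase that turns down glucose oxidation, had 892.9, 434.3, and 480.7 CPM in WT and 504.7, 1377, and 519.7 CPM in Lztr1 R409C/+ replicates 1, 2, and 3. Angptl4, an inhibitor of lipoprotein lipase, had 9.03, 2.31, and 1.82 CPM in WT and 3.74, 21.1, and 8.0 CPM in Lztr1 R409C/+ mice. The genotypes overlapped for both, and WT replicate 1 was the second highest mouse. Of the 28 genes of the list, 5 were highest in Lztr1 R409C/+ replicate 2, 9 in WT replicate 3, 7 in Lztr1 R409C/+ replicate 3, 4 in WT replicate 1, 2 in Lztr1 R409C/+ replicate 1, and 1 in WT replicate 2.

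Of 8 glucocorticoid-repressed genes, 7 were tested and all 7 had a log2 fold change above 0, with a median of 0.28. Of all 17212 genes tested, 8853 were above 0. At an unadjusted p under 0.05, 0 were lower and 1 was higher, beside 2.86% and 5.77% of all genes, the chemokine gene Ccl2 (0.83, SE 0.35, adjusted p = 0.554), at 0.726, 1.17, and 1.07 CPM in WT and 1.52, 2.32, and 1.41 CPM in Lztr1 R409C/+ mice. The adhesion gene Icam1 was next (0.40, adjusted p = 0.680). Scaled by library size only, the median of this list was 0.06 and that of all genes -0.14. With the 2 libraries of unusual mitochondrial share left out, the median was 0.67, Ccl2 (0.98, adjusted p = 0.588) no longer passed an unadjusted p of 0.05, and Icam1 (0.69, adjusted p = 0.413) did. The summed myeloid markers were also higher in all 3 Lztr1 R409C/+ mice (261.9 to 373.4 CPM) than in WT mice (160.3 to 192.1 CPM), and their part in the value of Ccl2 was not tested.

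Of 16 genes for the receptor complex and hormone handling, 15 were tested, with a median log2 fold change of -0.19. Of these 15, 13 were below 0, beside 8359 of all 17212 genes tested. At an unadjusted p under 0.05, 0 were higher and 3 lower, beside 5.77% and 2.86% of all genes. Hsp90aa1, the inducible HSP90 gene, had 157.2, 140.8, and 244.1 CPM in WT and 102.2, 134.0, and 109.9 CPM in Lztr1 R409C/+ mice (-0.65, SE 0.21, adjusted p = 0.436). The steroid exporter gene Abcb1a had -0.44 (adjusted p = 0.494), and the chaperone gene Hspa4, named because it completes the count, -0.40 (adjusted p = 0.532). Without the 2 libraries of unusual mitochondrial share, 0 of the list passed an unadjusted p of 0.05, beside 5.92% of all genes higher and 2.58% lower. Hsp90aa1 then had -0.29 (adjusted p = 0.638). Hsd11b1, which regenerates active glucocorticoid inside cells, had 10.6, 10.2, and 4.63 CPM in WT and 6.03, 7.11, and 9.02 CPM in Lztr1 R409C/+ mice (-0.19, adjusted p = 0.895). Without WT replicate 3, Hsd11b1 had -0.49 (adjusted p = 0.626) and passed an unadjusted p of 0.05, and without WT replicate 1 it had 0.0015. Nr3c2, the mineralocorticoid receptor that binds the same hormone, had -0.20 (SE 0.16, adjusted p = 0.774).

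For zinc and metal handling, 19 of 22 genes were tested and the median log2 fold change was -0.09, with 1 gene higher and 1 lower at an unadjusted p under 0.05, beside 5.77% and 2.86% of all genes. The zinc exporter gene Slc30a1, a target of MTF1 like the metallothioneins, was the lower one, with 24.6, 26.6, and 33.0 CPM in WT and 20.1, 24.6, and 18.0 CPM in Lztr1 R409C/+ mice (-0.43, SE 0.18, adjusted p = 0.551). The higher one was the metal importer gene Slc39a8 (0.78, adjusted p = 0.569). Mtf1 itself had 17.4, 18.7, and 17.5 CPM in WT and 17.1, 15.8, and 17.4 CPM in Lztr1 R409C/+ mice (-0.09, adjusted p = 0.904). The brain metallothionein gene Mt3 had 0.106, 0.155, and 0.243 CPM in WT and 0.343, 0.462, and 0.469 CPM in Lztr1 R409C/+ mice, without overlap (1.31, SE 0.64, adjusted p = 0.60). These are low counts. Mt3 did not pass the filter of at least 10 counts in every mouse, and DESeq2 gave it no adjusted p. Mt4 had 0 counts in every mouse. Without the 2 libraries of unusual mitochondrial share, Slc30a1 had -0.27 (adjusted p = 0.713) and Slc39a8 0.64 (adjusted p = 0.696), neither past an unadjusted p of 0.05, whereas Mt3 had 1.82 (adjusted p = 0.562) and passed it.

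Other inducers of metallothioneins were followed through their targets. Of 7 tested NRF2 targets, which respond to oxidative stress, 1 was higher and 1 lower at an unadjusted p under 0.05, beside 5.77% and 2.86% of all genes, with a median log2 fold change of 0.23. Hmox1, the heme oxygenase gene, had 2.83, 3.22, and 2.29 CPM in WT and 4.71, 4.85, and 6.97 CPM in Lztr1 R409C/+ mice. The genotypes did not overlap, and the log2 fold change was 0.99 (SE 0.25, adjusted p = 0.268 by the quasi-likelihood test and 0.0381 by DESeq2). Gclm, for glutathione synthesis, was the lower one (-0.38, adjusted p = 0.564). Both Hmox1 and Mt2 were higher in Lztr1 R409C/+ mice without overlap, and the part of NRF2 activity in the values of Mt2 was not tested. The median of the NRF2 targets was 0.08 without the 2 libraries of unusual mitochondrial share. Of 8 tested IL-6 and acute-phase genes, 0 passed an unadjusted p of 0.05 by edgeR, beside 5.77% of all genes higher and 2.86% lower. Those with the smallest p were Il1r1 (0.25, adjusted p = 0.732) and Socs3 (0.41, adjusted p = 0.752). Without Lztr1 R409C/+ replicate 1, Il1r1 had 0.11 and Socs3 0.60, and without replicate 3 they had 0.37 and 0.16.

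Because Cdkn1a also answers to p53, 18 p53 targets were tested. At an unadjusted p under 0.05, 1 was higher, Btg2 (0.56, SE 0.17, adjusted p = 0.340), and 1 was lower, Sesn1 (-0.35, adjusted p = 0.568), beside 5.77% and 2.86% of all genes, and the median was 0.09. Of these targets, 3 were higher and 1 lower without the 2 libraries of unusual mitochondrial share, beside 5.92% and 2.58% of all genes, and Sesn1 (-0.29, adjusted p = 0.641) was no longer among them. Of 16 tested paralogs of the 9 genes, 0 passed an unadjusted p of 0.05, beside 5.77% of all genes higher and 2.86% lower. Those nearest to it were Mt3, which passed it without the 2 libraries, and Tsc22d2 (-0.32, adjusted p = 0.603). Of 15 core clock genes, which follow the hour of collection, 0 were higher and 1 was lower at an unadjusted p under 0.05, beside 5.77% and 2.86% of all genes. This was Bhlhe41 (-0.34, adjusted p = 0.573), which did not pass without the 2 libraries of unusual mitochondrial share (-0.31, adjusted p = 0.632). Cry1 was next (-0.56, adjusted p = 0.588), and the median was 0.04.

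The counts of these lists moved with the scaling. With scaling by library size only, 2.25% of all genes were higher and 1.75% lower at an unadjusted p under 0.05. Of the induced list, 1 gene was then higher, Angptl4 (1.33), and 1 lower, Trim63 (-0.72), and the median was -0.23. Of the p53 targets, the zinc and metal genes, and the repressed genes, 0 were higher and 0 lower, with Btg2 at 0.44 and Ccl2 at 0.65. Of the receptor and hormone-handling genes, 1 was lower, Hsp90aa1 (-0.87), and of the NRF2 targets 1 was higher, Hmox1 (0.90). Of the clock genes, 1 was lower, Cry1 (-0.75), and Bhlhe41 (-0.50) did not pass.

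**Figure D5:**
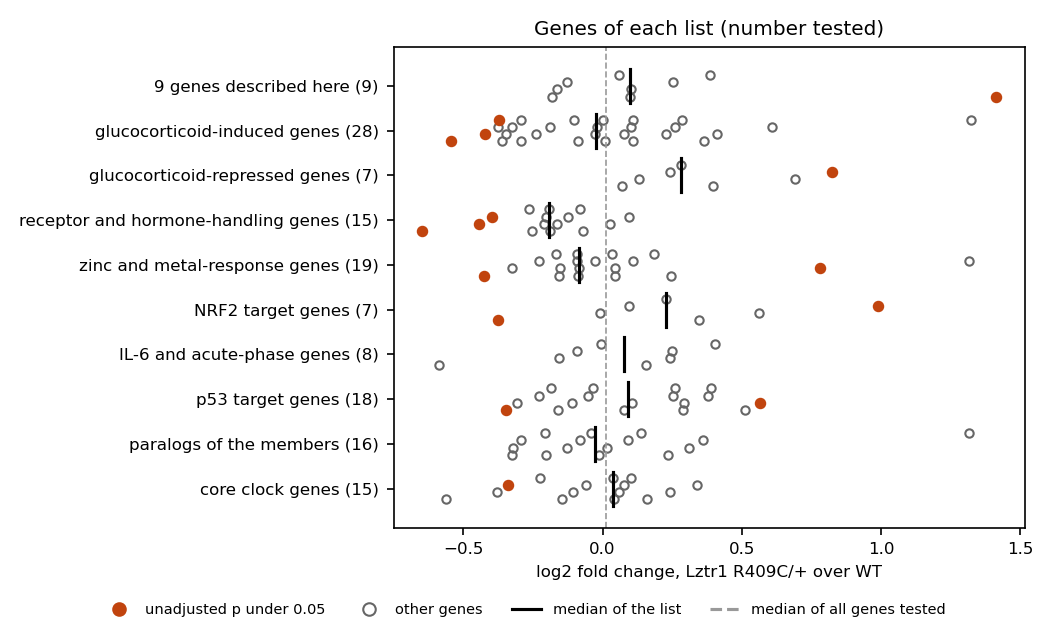
Log2 fold change of Lztr1 R409C/+ over WT mice for each tested gene of the lists (points), with filled points for an unadjusted p under 0.05, a black line at the median of each list, and a dashed line at the median of all genes, 0.01. The medians lie between -0.19 and 0.28, and Mt2 at 1.41 is the point farthest to the right.

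Cell type markers were measured beside these values, since fewer cells of a type and less RNA per cell cannot be told apart in bulk tissue. All 8 myeloid markers were higher in Lztr1 R409C/+ mice at an unadjusted p under 0.05, beside 5.77% of all genes, and 7 were higher without overlap, beside 8.3%, with a summed level of 160.3 to 192.1 CPM in WT and 261.9 to 373.4 CPM in Lztr1 R409C/+ mice. Scaled by library size only, 4 of the 8 were higher and 0 lower at an unadjusted p under 0.05, beside 2.25% and 1.75% of all genes. At an adjusted p under 0.05, DESeq2 called 4 of them, beside 158 of all 17212 genes, and edgeR's exact test 3, beside 137 of all 17212. The quasi-likelihood test called 0, beside 7 of all 17212 genes, or 2 with no filter on low counts, beside 20 of 27480. Replicate 2, the highest mouse for Mt1 and Mt2, had the lowest myeloid sum of the 3 Lztr1 R409C/+ mice at 261.9 CPM. The same mouse had the highest sum of the 5 atrial markers, at 107.1 CPM, against 38.14 to 77.15 CPM in the other mice. Only 2 of these 5 were tested, of which 1 was highest in this mouse and 1 in WT replicate 3. The 5 erythroid markers summed to 578.8 to 1479 CPM in WT and 1042 to 2625 CPM in Lztr1 R409C/+ mice, and the 6 cardiomyocyte markers to 35565 to 38800 and 25487 to 35856 CPM. The 6 lymphoid markers summed to 0.728 to 1.17 CPM in WT and 2.21 to 2.73 CPM in Lztr1 R409C/+ mice. Of these low-count markers, 3 were higher without overlap, beside 8.3% of all genes. Only 5 were tested, 1 of them was higher at an unadjusted p under 0.05, beside 5.77%, and 2 had at least 10 counts in every mouse. Of 6 fibroblast markers, 2 were higher without overlap, and of 5 smooth muscle and pericyte markers, 2 were lower without overlap, beside 8.3% and 7.23% of all genes. Adipocyte markers summed to at most 0.249 CPM, with 2 of 5 at 0 in every mouse, and 4 of 5 adrenal markers were at 0. The part of these cell types in the values of Mt2, Hmox1, and the other genes was not tested.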

How the data were processed

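RNA-seq of LVs from 3 WT and 3 Lztr1 R409C/+ mice was analysed, with each mouse as 1 library. The authors deposited whole-number counts per gene without normalization, made by trimming with Trim Galore, aligning to GRCm39 with HISAT2, excluding rRNA, and quantifying with StringTie. How counts were taken from StringTie, the strand setting, and the annotation release are not given in the sources used here. The table of the authors' own comparison was read for gene names only. Its fold changes and p-values were not used.

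The tests were run in R 4.3.3 and edgeR 4.0.16 (filterByExpr, TMM, robust quasi-likelihood test, Benjamini-Hochberg adjustment over 17212 genes, two-sided, threshold 0.05). CPM values are TMM-normalized, and single values were compared by exact permutation on log2(CPM + 0.5). Positions and exon lengths are from GENCODE vM39 on GRCm39, where 56236 of 56923 identifiers were found. Promoter windows are from RefSeq on GRCm38.p6, with positions on GRCm39 from exact matches. The fit was tested on simulated data. Total counts of 66130887 to 72641124 limit precision less than the spread between mice (common BCV 26.1%), and floors cover counting error only.

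The 9 genes and all lists were chosen with earlier results of these data known. Genes named are the 9, the 8 glucocorticoid-induced genes and the 2 genes of each other list with the smallest p, metallothionein paralogs, Per1, Hsd11b1, Nr3c2, Mtf1, and Slc30a1, and the 4 genes most like Fkbp5 and the metallothionein mean. Hspa4, Pdk4, Angptl4, and the genes antisense to the 9 were named outside this rule, after their values were seen. Alternatives were library size or upper quartile scaling, DESeq2 1.42.0, edgeR's exact test, other filters, removal of mitochondrial genes, the replicate number as a block, and each mouse left out. Leaving out WT replicate 3 and Lztr1 R409C/+ replicate 1 together was added after the data were seen.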

Additional observations from a re-analysis of the deposited data

How the results depend on the processing

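None of the 9 genes passed the adjusted threshold under any alternative, and Mt2 had an unadjusted p under 0.05 in all of them. The directions of Sgk1, Klf9, Mt2, and Nr3c1 held in all 15 alternatives, with Mt2 between 0.65 and 1.70. Scaling by library size only moved the median of all genes from 0.01 to -0.14, and with it the log2 fold change of Fkbp5 to -0.20, of Tsc22d3 to -0.13, and of Cdkn1a to -0.13, and the log2 CPM difference of Cdkn1a to -0.069. With 1 mouse left out in turn, log2 fold changes ranged from -0.33 to 0.77 for Fkbp5, -0.12 to 0.36 for Tsc22d3, -1.24 to 0.24 for Zbtb16, -0.10 to 0.26 for Cdkn1a, and -0.0096 to 0.62 for Mt1. The matching differences in mean log2 CPM ranged from -0.24 to 0.73, -0.10 to 0.38, -1.08 to 0.14, -0.10 to 0.25, and -0.024 to 0.57. Zbtb16 had 0.64 without both WT replicate 3 and Lztr1 R409C/+ replicate 1. The count of all genes past the threshold was 6 higher and 1 lower. It was 15 and 6 with library size only, 143 and 15 with DESeq2, 124 and 13 with edgeR's exact test, and 19 higher without a filter on low counts. It was 0 lower with at least 10 counts in every mouse, 0 higher without both libraries, and 1 to 3 higher and 1 to 2 lower with 1 mouse left out. Of the NRF2 targets, DESeq2 called 1. The cause of these shifts was not tested. Deviations from the genotype mean had correlations of -0.03, 0.06, and -0.10 between same-numbered mice. Between different-numbered mice they were -0.08 to 0.09, so these values cannot show whether the numbers pair the mice. With the replicate number as a block, 0 genes were higher and 1 lower, and Mt2 had 1.22 (adjusted p = 0.430). The depth of 420 counts or more per mouse for Mt2, the gene of the 9 with the lowest mean count, leaves the 3 mice per genotype as the limit on precision.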
